A study of Mus musculus with 9 samples.

Results

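The collagen genes of mouse perigonadal white adipose tissue were taken as the genes whose single platform symbol reads Col, a number, the letter a and a second number. Of 16299 genes with probe sets of exactly 1 symbol, 38 met that rule, and they held 1855 of 208397 such probe sets. By textbook class 11 of them encode chains of fibrillar collagens, 6 encode chains of the basement membrane collagen IV and 21 encode chains of other collagens. Col4a3bp, whose symbol continues past the number and whose product transfers lipids, was left out.

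RNA had been hybridised to Affymetrix exon arrays, 1 sample per array, from mice aged 4 months in all groups. The first group held 3 arrays of mice labelled G609G/G609G, homozygous for the Lmna allele that yields progerin, the truncated lamin A of progeria. The second held 3 arrays of mice labelled LCS/LCS, homozygous for the Lmna allele from which lamin C but no lamin A is made. The third held 3 arrays of wild-type (WT) mice. The labels do not name strain or sex, or say whether an array held 1 animal. Lmna itself had values of 7.61, 7.78 and 7.63 in G609G, 7.91, 7.73 and 8.03 in LCS and 7.93, 7.78 and 7.79 in WT on the log2 scale, and passed the test neither in G609G nor in LCS against WT (limma, adjusted p = 0.119 and 0.633). These values are rescaled as described below. On the values as deposited Lmna was lower in G609G than in WT (log2 -0.60, limma adjusted p = 3.56e-05), as were 70.1% of all genes. Against LCS it was lower in G609G on both scales (rescaled -0.21, limma adjusted p = 0.0368, and deposited -0.69, adjusted p = 8.6e-06). The alleles are knock-ins that keep the gene, so its level does not check the labels.

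Collagens are built from chains with a glycine recurring at a fixed spacing, wound together into a triple helix. Fibrillar collagens (types I, II, III, V, XI and relatives) assemble into the banded fibrils that give tissue its tensile strength, collagen IV forms the sheet-like scaffold of basement membranes, and collagen VI forms beaded microfilaments between them. In white fat every adipocyte is wrapped in a basement membrane, and much of the fibrillar collagen is made by fibroblasts and adipocyte progenitors of the stroma.

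Values are log2 intensities, summarised per gene over its probe sets. As deposited, the array medians were 6.57 ± 0.06 in G609G, 7.23 ± 0.04 in LCS and 7.21 ± 0.06 in WT (SD, n = 3 each). Each array was therefore shifted by the median deviation of the 11805 tested genes from their means (called relative to the median gene below), which removed a mean offset of -0.449 from the G609G arrays and 0.0313 from the LCS arrays. The calls of collagen genes, and the counts of the gene lists in G609G, were also read from the deposited values. Directions of single probe sets and levels of untested genes are given relative to the median gene only. Probe sets differ in how brightly they hybridise, so levels of different genes were not ranked.

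The arrays labelled G609G carried a strong skeletal muscle signal. The mean of 13 skeletal muscle markers was 11.86 to 11.89 in the G609G arrays, against 5.35 to 5.40 in the LCS arrays and 5.05 to 5.25 in the WT arrays. Markers of epididymis and testis averaged 9.02 to 9.08 in G609G, 10.20 to 10.32 in LCS and 11.87 to 11.99 in WT. Mature adipocyte markers were present throughout, at 11.87 to 11.90 in G609G, 12.62 to 12.64 in LCS and 12.43 to 12.52 in WT, but Lep (leptin, an adipocyte hormone, singled out after its value was seen) averaged 5.21 ± 0.05 in G609G, 11.75 ± 0.04 in LCS and 10.63 ± 0.08 in WT. All 3 G609G arrays carried the muscle signal, so no G609G value could be had without it, and its part in the collagen results of G609G was not tested. In whole tissue, fewer cells of a type and less RNA per cell cannot be told apart.

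Of the 38 collagens, 35 were tested, having 3 or more probe sets and a mean over the 25th percentile of genes. The test was limma with Benjamini-Hochberg adjustment over all tested genes and a threshold of 0.05. In G609G minus WT, 26 of the 35 differed, against 69.9% of all genes. Of these 13 were lower and 13 were higher, while 36.5% of all tested genes were lower and 33.4% higher. The collagen shares, 37.1% in each direction, were near that background, so these counts are no result about collagens. With a fold of at least 1.5, 8 were lower and 1 higher, against 16.2% and 9.64% of all genes, and the arrays of the 2 groups did not overlap in 25 collagens, against 70.8% of all genes. On the deposited values the split was 18 lower and 0 higher, against 70.1% and 8.27% of all genes. All 13 lower collagens were also called lower on the deposited values, whereas none of the 13 higher ones passed the test on the deposited scale.

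In LCS minus WT, 15 of the 35 collagens were higher and 0 were lower by limma, against 38.9% of all genes called in either direction, while 21.8% of all genes were higher and 17.1% lower. A rise of 1.5-fold or more was called for 7 of them, against 3.22% of all genes, and a fall of that size for 0, against 5.21%. The arrays did not overlap in 17 collagens, against 56.7% of all genes. The 15 calls were the same on the deposited scale (21.8% of all genes higher there too), and the other 20 collagens had log2 folds between -0.09 and 0.11. In G609G minus LCS, 28 collagens differed, against 73.2% of all genes. Of these 16 were lower and 12 higher, against 36.7% and 36.5% of all genes. With a fold of at least 1.5, 14 were lower and 1 higher, against 17.4% and 12% of all genes, and the arrays did not overlap in 27 collagens, against 74.9% of all genes. On the deposited scale that split was 21 lower and 0 higher, against 69.1% and 9.38%. The 3 comparisons share arrays with one another, so their values are given side by side and not as independent evidence.

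**Figure D1:**
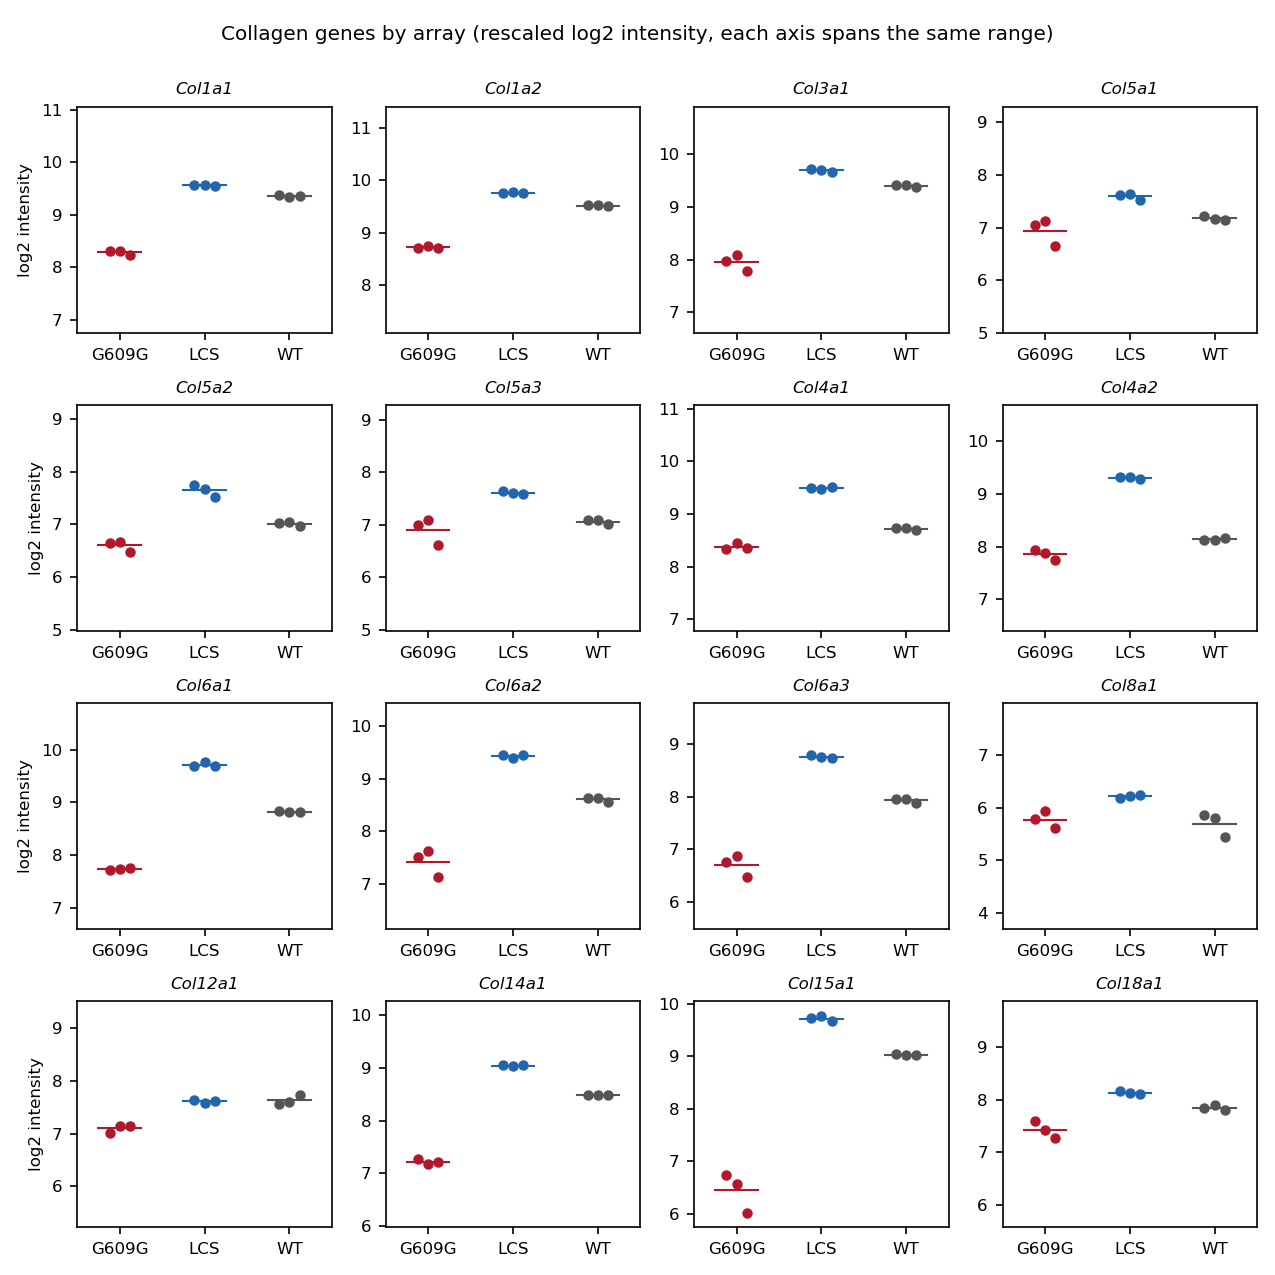
Rescaled log2 intensity (vertical axis, the same span in every panel) of the 16 collagen genes called lower in G609G or higher in LCS against WT, in G609G, LCS and WT arrays; points are arrays and lines are means of 3. Col15a1 spans the widest gap, with G609G arrays at 6.02 to 6.74, LCS arrays at 9.67 to 9.76 and WT arrays at 9.03 to 9.04.

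Collagen I, the main fibre of connective tissue, is a heterotrimer of the Col1a1 and Col1a2 chains. Col1a1 had log2 intensities of 8.30, 8.32 and 8.23 in G609G, 9.57, 9.57 and 9.56 in LCS and 9.37, 9.34 and 9.36 in WT. Col1a2 had 8.71, 8.75 and 8.72 in G609G, 9.76, 9.78 and 9.76 in LCS and 9.53, 9.53 and 9.50 in WT. For both chains every G609G array lay below every WT array and every LCS array above. The log2 folds in G609G minus WT were -1.07 for Col1a1 (SE 0.04, limma adjusted p = 2.65e-10) and -0.79 for Col1a2 (SE 0.04, adjusted p = 1.29e-09). In LCS minus WT the rises were small, 0.21 for Col1a1 (SE 0.04, adjusted p = 0.00122) and 0.24 for Col1a2 (SE 0.04, adjusted p = 0.000162).

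Collagen III, a homotrimer of Col3a1 that co-assembles with collagen I in pliable tissues, fell furthest among the fibrillar chains in G609G. Col3a1 had 7.97, 8.08 and 7.78 in G609G, 9.72, 9.70 and 9.66 in LCS and 9.42, 9.42 and 9.39 in WT, again without overlap. That is 2.75-fold lower in G609G than in WT (log2 -1.46, SE 0.06, limma adjusted p = 1.19e-09) and 1.22-fold higher in LCS (log2 0.29, SE 0.06, adjusted p = 0.00371).

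Collagen V chains nucleate collagen I fibrils and set their diameter, and all 3 had negative folds in G609G minus WT. Col5a2 had 6.65, 6.67 and 6.48 in G609G, 7.76, 7.68 and 7.52 in LCS and 7.03, 7.05 and 6.97 in WT, a fall of 0.41 in G609G (SE 0.08, limma adjusted p = 0.000933) and a rise of 0.64 in LCS (SE 0.08, adjusted p = 7.79e-05). Col5a1 had 7.05, 7.12 and 6.65 in G609G, 7.61, 7.64 and 7.53 in LCS and 7.22, 7.17 and 7.14 in WT. Col5a3 had 7.0, 7.10 and 6.61 in G609G, 7.65, 7.60 and 7.58 in LCS and 7.09, 7.09 and 7.01 in WT. In both genes replicate 3 was the lowest G609G array, and the log2 folds in G609G minus WT, -0.24 for Col5a1 and -0.16 for Col5a3, did not pass the test (adjusted p = 0.0675 and 0.217). Col5a1 passed when the replicate number was a block (limma, adjusted p = 0.0377), and both passed on the deposited values. Col5a1 also passed without WT replicate 3, G609G replicate 1 or 2, or LCS replicate 1 or 3, with log2 folds of -0.33 to -0.26, and under quantile normalization, a plain mean of probe sets, a summary of bright probe sets alone and no filter on dim genes, with -0.37 to -0.30. Col5a3 passed with a plain mean of probe sets (-0.29, limma adjusted p = 0.0209) and with no filter on dim genes (-0.29, adjusted p = 0.0284). In LCS both were higher than in WT, by 0.42 (adjusted p = 0.00896) and 0.55 (adjusted p = 0.00172).

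The remaining fibrillar chains belong largely to cartilage, where Col2a1 encodes the main fibril and Col11a1 and Col11a2 its core. Relative to the median gene all 3 were higher in G609G than in WT (log2 0.32, 0.44 and 0.33), but on the deposited scale their folds were -0.12, -0.01 and -0.12 and none passed. Col27a1, a fibrillar chain of developing cartilage, had a log2 fold of 0.27 that missed the threshold (limma adjusted p = 0.0932) and passed with the replicate number as a block (adjusted p = 0.0264). In LCS minus WT these 4 genes lay between -0.03 and 0.10 and none was called. By class, 4 of 10 tested fibrillar genes were lower and 3 higher in G609G, with a median log2 fold of -0.20 (-0.65 on the deposited scale), and 6 of 10 were higher in LCS, with a median of 0.23. Over all tested genes 36.5% were lower and 33.4% higher in G609G and 21.8% higher in LCS, with medians of -0.01 and 0.02, so that the G609G counts of the class were near the background.

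The ubiquitous basement membrane network is built from the Col4a1 and Col4a2 chains, whose genes lie head to head on chromosome 8. The start of the pair is shown because both genes were among the 5 collagens with the largest rises in LCS. In RefSeq (GRCm38.p6) the annotated Col4a1 transcript starts at base 11312826 on the minus strand and the Col4a2 transcript at base 11312805 on the plus strand, so that the first 22 bases of each lie opposite each other. The capitals mark this shared stretch, chr8:11312805-11312826, read on the plus strand.
Col4a1 and Col4a2 shared start: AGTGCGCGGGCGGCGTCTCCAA

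Col4a1 had 8.33, 8.44 and 8.36 in G609G, 9.49, 9.47 and 9.51 in LCS and 8.74, 8.74 and 8.70 in WT. Col4a2 had 7.93, 7.87 and 7.75 in G609G, 9.33, 9.32 and 9.28 in LCS and 8.13, 8.12 and 8.16 in WT. The LCS arrays stood apart from both other groups for each gene. Col4a2 was 2.25-fold higher in LCS than in WT (log2 1.17, SE 0.05, limma adjusted p = 8.73e-09) and Col4a1 rose by 0.77 on the log2 scale (SE 0.04, adjusted p = 5.66e-08). In G609G minus WT the falls were smaller, -0.34 for Col4a1 (SE 0.04, adjusted p = 1.95e-05) and -0.28 for Col4a2 (SE 0.05, adjusted p = 0.000557). Col4a2 no longer passed in G609G when the array medians were set equal (log2 fold -0.115, limma adjusted p = 0.123).

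The other 4 chains of collagen IV make up the specialised networks of kidney, lung, eye and smooth muscle. Col4a3, Col4a4 and Col4a6 were higher in G609G than in WT relative to the median gene (log2 0.27, 0.37 and 0.33), with deposited folds of -0.18, -0.08 and -0.12 that did not pass. Col4a5 had 0.09 relative to the median gene and -0.35 on the deposited values, where it passed the test. In LCS minus WT the 4 genes lay between -0.06 and 0.10 and none was called, so that within the class 2 of 6 genes were higher in LCS and the class median was 0.03. In G609G minus WT 2 of the 6 were lower and 3 higher, with a class median of 0.18 that turned to -0.27 on the deposited scale, where 3 were lower and 0 higher. Over all genes 36.5% were lower and 33.4% higher (70.1% and 8.27% as deposited), and in LCS 21.8% were higher. Col4a5 and Col4a6 also lie head to head, on chromosome X, with 1342 bases between their annotated starts.

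Collagen VI is assembled from 1 chain each of Col6a1, Col6a2 and Col6a3 and surrounds adipocytes as a microfilament mesh. Col6a1 had 7.71, 7.74 and 7.75 in G609G, 9.70, 9.76 and 9.69 in LCS and 8.85, 8.82 and 8.82 in WT. Col6a2 had 7.51, 7.62 and 7.13 in G609G, 9.45, 9.40 and 9.45 in LCS and 8.64, 8.64 and 8.56 in WT. Col6a3 had 6.77, 6.88 and 6.48 in G609G, 8.79, 8.76 and 8.74 in LCS and 7.96, 7.96 and 7.88 in WT. The groups were ordered G609G, WT, LCS from low to high in all 3 genes, with no overlap. The falls in G609G were -1.10, -1.19 and -1.23 (SE 0.04, 0.10 and 0.09; limma adjusted p = 3.43e-10, 4.18e-07 and 1.26e-07), and the rises in LCS were 0.89, 0.82 and 0.83 (the same SE; adjusted p = 1.1e-08, 3.53e-05 and 1.45e-05). All 3 calls held on the deposited values in both comparisons.

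Collagens XV and XVIII, the multiplexins, carry sugar chains and link basement membranes to the stroma beneath. Col15a1 had 6.74, 6.57 and 6.02 in G609G, 9.72, 9.76 and 9.67 in LCS and 9.04, 9.03 and 9.03 in WT. It was 6.0-fold lower in G609G than in WT (log2 -2.58, SE 0.14, limma adjusted p = 6.06e-09) and 1.61-fold higher in LCS (log2 0.69, SE 0.14, adjusted p = 0.00167). Its fall was the largest among the 35 tested collagens. Col18a1, whose product contains endostatin, had 7.59, 7.43 and 7.27 in G609G, 8.17, 8.13 and 8.11 in LCS and 7.83, 7.90 and 7.81 in WT. It fell by 0.42 in G609G (SE 0.08, adjusted p = 0.000424) and rose by 0.29 in LCS (SE 0.08, adjusted p = 0.011). The LCS call of Col18a1 was lost without G609G replicate 2 (log2 0.23, limma adjusted p = 0.0577). Leaving out an array redid the gene summary, the filter and the scaling as well as the shared variance, so the fold changed too.

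The FACIT collagens sit on the surface of fibrils and join them to other matrix. Col14a1, found with collagen I, had 7.27, 7.18 and 7.22 in G609G, 9.05, 9.04 and 9.05 in LCS and 8.49, 8.49 and 8.48 in WT, a fall of 1.27 in G609G (SE 0.05, limma adjusted p = 2.63e-10) and a rise of 0.56 in LCS (SE 0.05, adjusted p = 2.04e-06). Col12a1, its close relative, had 7.0, 7.14 and 7.15 in G609G, 7.64, 7.58 and 7.62 in LCS and 7.57, 7.61 and 7.73 in WT. It fell by 0.53 in G609G (SE 0.07, adjusted p = 2.56e-05), but in LCS the arrays overlapped those of WT and the log2 fold was -0.02 (SE 0.07, adjusted p = 0.846). The cartilage chains Col9a1, Col9a2 and Col9a3 and the relative Col20a1 were higher in G609G relative to the median gene (log2 0.55, 0.44, 0.59 and 0.47). Their deposited folds were 0.10, -0.01, 0.14 and 0.02, and none of them passed on that scale. Col16a1 had log2 folds of 0.19 in G609G and 0.08 in LCS, and neither was called.

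Among the rest, Col8a1, a short-chain collagen of vessel walls, had 5.78, 5.94 and 5.61 in G609G, 6.19, 6.23 and 6.24 in LCS and 5.86, 5.80 and 5.43 in WT. It rose by 0.52 in LCS (SE 0.12, limma adjusted p = 0.00463), while G609G and WT arrays overlapped (log2 0.07, adjusted p = 0.598). On the deposited scale that fold was -0.37 and passed the test. Its partner Col8a2 and the transmembrane collagens Col13a1 and Col25a1 were called higher in G609G relative to the median gene (log2 0.28, 0.38 and 0.47) and had deposited folds of -0.17, -0.07 and 0.02. The transmembrane chains Col17a1 and Col23a1 and the skin anchoring-fibril chain Col7a1 had folds of 0.09, 0.21 and 0.23 in G609G and were not called, though Col17a1 was called lower on the deposited scale (-0.36). Of 19 tested genes outside the fibrillar and basement membrane classes, 7 were lower and 7 higher in G609G, with a median log2 fold of 0.19 that turned to -0.26 on the deposited scale, and 7 were higher in LCS, with a median of 0.07. The G609G counts were near the 36.5% lower and 33.4% higher of all genes, of which 21.8% were higher in LCS.

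The 3 genes that were not tested were dim in every group. Col10a1, the collagen of hypertrophic cartilage, averaged 5.14 ± 0.26 in G609G, 4.12 ± 0.16 in LCS and 4.14 ± 0.10 in WT over its 2 probe sets. Col19a1 averaged 5.06 ± 0.10 in G609G, 4.49 ± 0.03 in LCS and 4.42 ± 0.07 in WT. Col24a1 averaged 4.46 ± 0.43 in G609G, 3.69 ± 0.04 in LCS and 3.72 ± 0.13 in WT (SD, n = 3 arrays each).

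**Figure D2:**
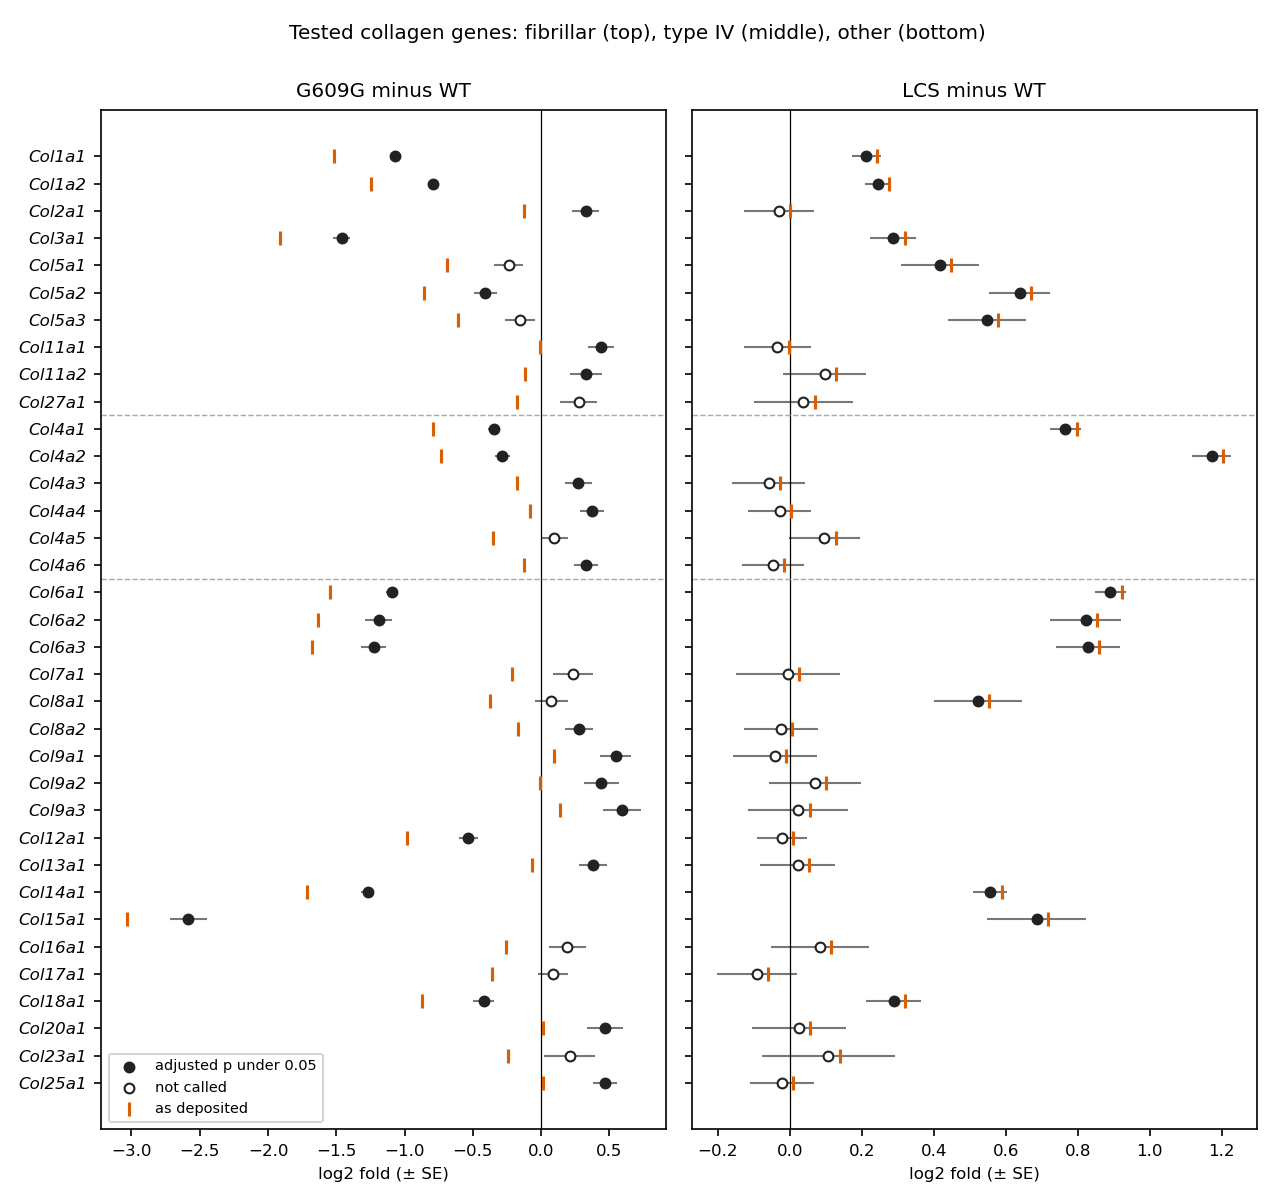
Log2 fold (horizontal axis) of the 35 tested collagen genes in G609G minus WT and LCS minus WT, relative to the median gene (circles, bars are SE, filled where the adjusted p was under 0.05) and on the deposited scale (orange ticks). In G609G the 13 genes called higher move to between -0.18 and 0.14 on the deposited scale, while in LCS both scales nearly coincide.

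Relative to the median gene, the direction in G609G went with the level of the gene. Of 17 collagens in the dimmest of 4 equal bins of tested genes (mean log2 intensity 5 to 6.48 over all arrays), 10 were higher and 0 lower in G609G minus WT, where 35.8% of all genes in that bin were higher and 20.1% lower. Of 8 collagens in the next to brightest bin, 8 were lower, against 44% of all genes there, and of 3 in the brightest bin 3 were lower, against 41.2%. In LCS minus WT the collagens of those upper 2 bins were all higher, 8 of 8 and 3 of 3, against 24.2% and 35.7% of all genes in them. The rises of dim collagens in G609G depended on the scale. As deposited 0 of 35 collagens were higher in G609G minus WT, against 8.27% of all genes. The median log2 fold of all genes in the dimmest bin was then -0.31, against 0.14 relative to the median gene. The 13 genes called higher in G609G had WT means from 4.90 to 7.28, and without WT replicate 3 only 7 collagens were called higher. Col2a1, Col4a3, Col8a2, Col11a2, Col13a1 and Col20a1 each lost the call without that array. Without G609G replicate 3, 17 collagens were called higher. Replicate 3 was the lowest array of its group in 30 of 35 collagens in G609G, 20 in LCS and 32 in WT, against 29.6%, 29.7% and 38.9% of all tested genes, and its part in the results was not tested.

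**Figure D3:**
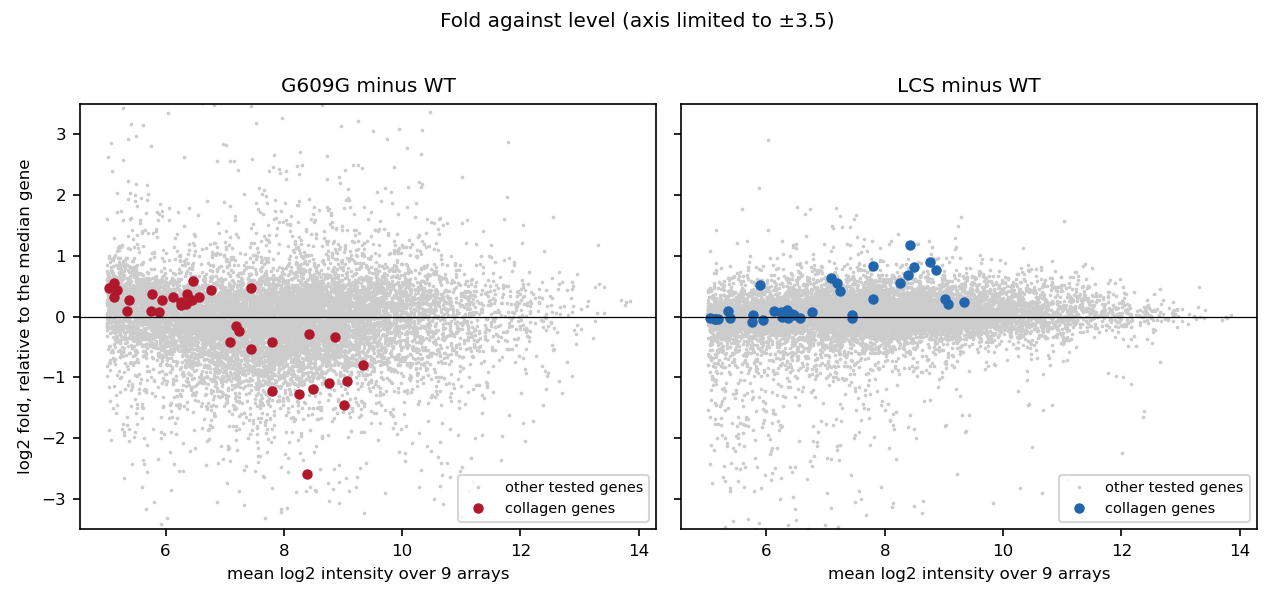
Log2 fold relative to the median gene (vertical axis) against the mean log2 intensity over 9 arrays (horizontal axis) for the 35 tested collagens (coloured) and the other tested genes (grey), in G609G minus WT and LCS minus WT. The collagens of the upper 2 bins of level lie below 0 in G609G, down to -2.58, and above 0 in LCS, up to 1.17.

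Differences between collagens within an array are not changed by a constant shift of that array. The mean of Col4a1 and Col4a2 minus the mean of Col1a1, Col1a2 and Col3a1 was -0.23 to -0.19 in G609G and -0.29 to -0.27 in LCS, against -1.0 to -0.99 in WT. Both mutants therefore had more signal of collagen IV relative to collagens I and III than WT, without overlap, but by different moves. In G609G both gene sets fell against WT. The log2 folds were -0.34 and -0.28 for Col4a1 and Col4a2, and -1.07, -0.79 and -1.46 for Col1a1, Col1a2 and Col3a1. Any gene that fell less than the mean of these 3 in G609G would show the same. In LCS both gene sets rose, Col4a1 and Col4a2 by more (0.77 and 1.17, against 0.21, 0.24 and 0.29). The collagen VI mean minus the same 3 genes was -1.13 to -0.97 in G609G, -0.37 in each LCS array and -1.0 to -0.95 in WT, so that only LCS stood apart in it. Collagen V minus the same genes was -1.67 to -1.42 in G609G and -2.12 to -2.01 in LCS, against -2.38 to -2.33 in WT. Col15a1 minus the same genes was -2.22 to -1.59 in G609G and 0.01 to 0.08 in LCS, against -0.40 to -0.39 in WT. With 3 arrays a group these ranges were given without a test.

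The 5′ sequence is shown for 4 genes that moved strongly or make up the main fibres, each as the 250 bases before the RefSeq start (GRCm38.p6), 5′ to 3′ on the gene's strand. RefSeq windows were found for 31 of the 38 genes, 34 windows in all. The TATA box with the letters TATAAA, the box of the letters CCAAT and the GC box with the letters GGGCGG were searched on both strands, and capitals mark every match. The intervals are chr6:4505368-4505617 (plus) for Col1a2, chr1:45311288-45311537 (plus) for Col3a1, chr10:76726045-76726294 (minus) for Col6a1 and chr4:47207762-47208011 (plus) for Col15a1.
Col1a2: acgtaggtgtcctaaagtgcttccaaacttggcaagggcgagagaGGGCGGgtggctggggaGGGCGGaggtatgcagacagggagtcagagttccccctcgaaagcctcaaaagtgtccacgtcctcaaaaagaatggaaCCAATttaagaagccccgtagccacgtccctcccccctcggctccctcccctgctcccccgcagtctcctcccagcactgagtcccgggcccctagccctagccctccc
Col3a1: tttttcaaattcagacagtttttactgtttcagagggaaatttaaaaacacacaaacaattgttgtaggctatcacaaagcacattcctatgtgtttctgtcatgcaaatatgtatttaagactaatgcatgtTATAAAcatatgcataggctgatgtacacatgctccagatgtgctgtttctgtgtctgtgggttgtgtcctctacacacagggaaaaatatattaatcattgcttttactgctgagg
Col6a1: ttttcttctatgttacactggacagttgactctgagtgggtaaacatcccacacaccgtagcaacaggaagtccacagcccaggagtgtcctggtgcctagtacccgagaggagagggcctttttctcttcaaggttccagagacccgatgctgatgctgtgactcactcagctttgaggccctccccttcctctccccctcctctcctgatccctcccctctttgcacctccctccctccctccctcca
Col15a1: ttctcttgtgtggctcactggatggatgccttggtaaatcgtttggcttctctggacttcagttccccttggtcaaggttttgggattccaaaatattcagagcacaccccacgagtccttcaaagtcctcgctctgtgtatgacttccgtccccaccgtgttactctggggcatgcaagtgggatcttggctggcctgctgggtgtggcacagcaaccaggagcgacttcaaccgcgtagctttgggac

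The Col1a2 window held 1 CCAAT and 2 GGGCGG matches and the Col3a1 window 1 TATAAA match, while those of Col6a1 and Col15a1 held none of the 3. TATAAA occurred in 5 of 34 collagen windows, against 12.4% of all 32851 windows. CCAAT occurred in 12 of 34, against 33.8%, and GGGCGG in 19 of 34, against 32.7%. A match describes the letters and not a bound site.

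In the collagens named in this paragraph most probe sets moved in the direction of the gene. The like share over all genes was not computed, and the directions were read relative to the median gene only. In Col15a1, 43 of 44 probe sets above the intensity filter were lower in G609G than in WT and 44 of 44 were higher in LCS. In Col6a2 it was 27 of 27 in each direction. In Col3a1 52 of 53 were lower in G609G and 52 of 53 higher in LCS, and in Col14a1 the counts were 46 and 48 of 48. In the collagen IV pair the fall in G609G was less even, with 49 of 66 probe sets of Col4a1 and 41 of 54 of Col4a2 lower, whereas 65 of 66 and 54 of 54 were higher in LCS. Lower in G609G were also 44 of 65 probe sets of Col5a1, 34 of 47 of Col5a2, 39 of 65 of Col5a3 and 32 of 43 of Col18a1.

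**Figure D4:**
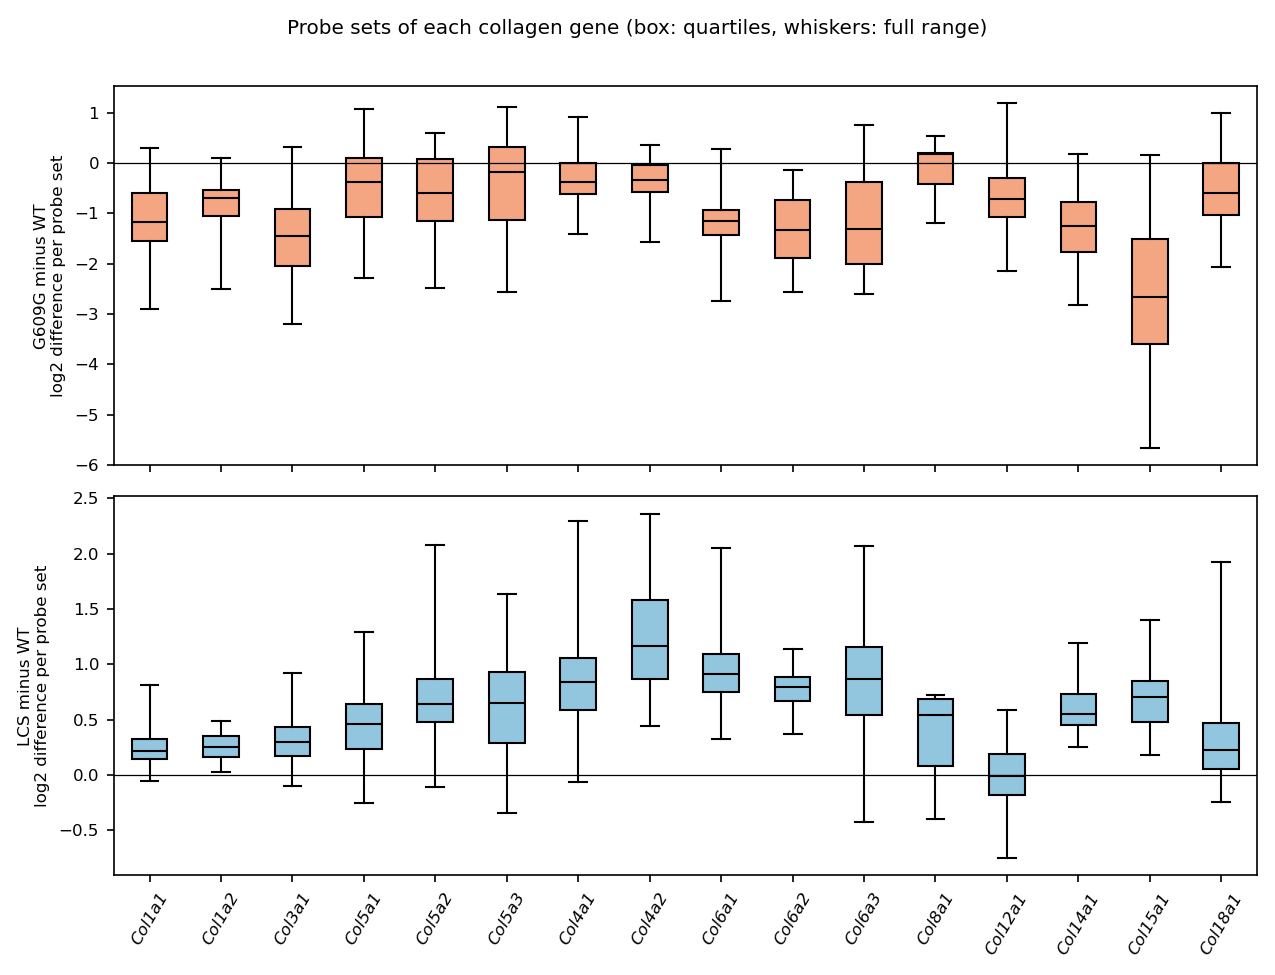
Difference between group means per probe set (vertical axis, log2) for 16 collagen genes, G609G minus WT above and LCS minus WT below; boxes are quartiles, whiskers the full range over probe sets above the filter. Values are relative to the median gene. The boxes of Col15a1, Col3a1 and the 3 collagen VI genes lie wholly below 0 in G609G and wholly above 0 in LCS.

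Each probe set was then compared with the rest of its gene by diffSplice of limma. Of 1446 collagen probe sets in 36 genes, 20 were called in LCS minus WT, or 1.38%, against 1.86% of all 158136 probe sets tested. In G609G minus WT 349 were called, or 24.1%, against 15.7%, and in G609G minus LCS 410, or 28.4%, against 18.2%. The filter used the mean over all arrays, so a probe set could be called that was under it in G609G. How many such calls there were was not counted, so the G609G shares are no result about exons of collagens. The LCS count was unstable, at 8 without LCS replicate 1, 10 without LCS replicate 3, 12 without WT replicate 1 or WT replicate 2, 32 without G609G replicate 1 and 44 without G609G replicate 3. Positions of probe sets in the genes were not used here, so calls name a probe set and not an exon.

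The LCS call with the lowest p was probe set 5547602 of Col4a1. It averaged 4.96 ± 0.20 in G609G, 8.29 ± 0.30 in LCS and 5.99 ± 0.60 in WT, and rose 1.50 further than its gene in LCS minus WT (diffSplice adjusted p = 2.26e-09). Probe set 4630530 of Col16a1 went the other way, with 9.68 ± 0.04 in G609G, 8.61 ± 0.04 in LCS and 10.42 ± 0.13 in WT, a shift of -2.01 against its gene (adjusted p = 8.94e-06). Probe sets 4670160 of Col6a1 and 5052522 of Col18a1 rose 1.16 and 1.62 beyond their genes, and 4965152 of Col6a3 lay -1.34 below its gene (adjusted p = 1.71e-05, 8.57e-05 and 0.000156). The Col6a3 set was uneven in LCS, at 6.02, 7.46 and 6.83, and overlapped WT, at 7.05, 7.10 and 7.44. In G609G minus WT the lowest p belonged to probe set 4643384 of Col15a1, which averaged 3.81 ± 0.41 in G609G, 10.34 ± 0.13 in LCS and 9.47 ± 0.25 in WT. The intensity filter of 5.0111 was set on the mean over all arrays as deposited, and this probe set passed it through LCS and WT alone, so its shift against the gene in G609G has no measured size. Probe sets 4949548 of Col1a2, 5560894 of Col1a1, 4446104 of Col6a1 and 4999935 of Col14a1 followed. Those of Col1a2 and Col14a1 were likewise under the filter in the deposited G609G values. The Col1a1 set averaged 5.54 ± 0.51 in G609G relative to the median gene, and its G609G replicate 1, at 4.95, was under the filter. The size of its shift of -1.81 against the gene is therefore not sure. The Col6a1 set averaged 5.98 ± 0.56 in G609G and had a shift of -1.69 against its gene.

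Genes that make, trim and bind collagen are given from textbook lists, and each count is to be read against all genes, of which 36.5% were lower and 33.4% higher in G609G minus WT (70.1% and 8.27% as deposited) and 21.8% were higher and 17.1% lower in LCS minus WT (21.8% and 13.1% as deposited). Of 17 tested genes of collagen synthesis and folding, 11 were lower and 2 higher in G609G minus WT, and 13 were higher and 2 lower in LCS minus WT. Creb3l1, a membrane-bound transcription factor of collagen secretion, averaged 6.91 ± 0.14 in G609G, 8.89 ± 0.08 in LCS and 7.95 ± 0.02 in WT (SD, n = 3), a fall of 1.04 in G609G and a rise of 0.94 in LCS (limma adjusted p = 1.05e-07 and 9.96e-07). The lysyl hydroxylase gene Plod1 had -0.74 and 0.58 in the same comparisons. Plod3, a hydroxylase that also adds sugars, fell by 1.17 in G609G, and Plod2, whose product hydroxylates the chain ends, rose by 0.72 in LCS. The median log2 fold of the list was -0.50 in G609G and 0.32 in LCS. On the deposited values 16 of the 17 were lower and 1 higher in G609G, and 12 were higher and 1 lower in LCS.

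Of 9 tested genes of procollagen trimming and crosslinking, 6 were lower and 0 higher in G609G (36.5% and 33.4% of all genes), and 8 were higher and 0 lower in LCS (21.8% and 17.1%). Bmp1, the protease that removes the C-propeptide, averaged 8.12 ± 0.02 in G609G, 9.69 ± 0.0034 in LCS and 8.86 ± 0.04 in WT. It fell by 0.74 in G609G and rose by 0.83 in LCS (limma adjusted p = 8.5e-09 and 1.47e-08). The enhancer of that protease, Pcolce2, had -0.90 and 0.62, and the crosslinking oxidase Loxl1 had -1.20 and 0.70. Loxl2, an oxidase active on basement membranes, fell by 1.27 in G609G, and Adamts2, which removes N-propeptides, rose by 0.57 in LCS. The list had a median log2 fold of -0.60 in G609G and 0.54 in LCS, and on the deposited values 8 were lower in G609G, against 70.1% of all genes, and 8 higher in LCS.

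Of 11 tested collagen-binding matrix genes, 9 were lower and 1 higher in G609G (36.5% and 33.4% of all genes), and 9 were higher and 0 lower in LCS (21.8% and 17.1%). Sparc, a collagen chaperone of the matrix, had -1.05 and 0.45 in the 2 comparisons, fibronectin (Fn1) -1.08 and 0.47, and nidogen 1 (Nid1), a linker of basement membranes, -1.13 and 0.50. Prelp, a leucine-rich proteoglycan, averaged 10.58 ± 0.10 in G609G and 12.63 ± 0.03 in WT, a fall of 2.05 (SE 0.04, limma adjusted p = 7.73e-13). The member that rose in G609G, named after its value was seen, was Dcn (decorin, a small fibril-binding proteoglycan), with 0.49 relative to the median gene and 0.04 on the deposited scale, where it was not called. The median log2 fold of the list was -0.75 in G609G and 0.34 in LCS. On the deposited values 10 of the 11 were lower and 0 higher in G609G, against 70.1% and 8.27% of all genes. Of 7 tested collagen receptors and uptake genes 5 were lower and 2 higher in G609G, and 5 were higher in LCS, with medians of -0.28 and 0.24, and on the deposited values 5 were lower and 0 higher in G609G. Mrc2, which takes up collagen fragments, had -0.66 and 1.06, and the collagen receptor gene Ddr2 had -0.56 and 0.26.

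Of 13 tested genes of transforming growth factor beta and fibrosis signalling, 6 were lower and 4 higher in G609G, and 6 were higher in LCS, with medians of -0.14 and 0.10. These G609G shares were near the 36.5% lower and 33.4% higher of all genes, and on the deposited values the split was 10 lower and 2 higher (70.1% and 8.27% of all genes). Tgfb1, the ligand, had -0.94 in G609G and 0.30 in LCS, whereas its receptor gene Tgfbr2 had 0.56 (0.11 on the deposited scale) and 0.32. Ctgf, a target of the pathway, rose by 0.72 in G609G (deposited fold 0.27), and the feedback inhibitors Skil and Smad7 rose by 0.63 and 0.50 in LCS. Of 9 tested genes of collagen breakdown 3 were lower and 3 higher in G609G, and 3 were higher and 1 lower in LCS, with medians of -0.05 and 0.23. The G609G counts were again near the share of all genes, and on the deposited values 7 were lower and 1 higher. Timp3, an inhibitor of matrix proteases, had 0.82 (0.37 on the deposited scale) and 0.42. Mmp9, a gelatinase of leukocytes, fell by 0.92 in G609G. Mmp2, the other gelatinase, fell by 0.42 in LCS, and Ctsk, a collagen-cleaving cathepsin, rose by 0.76 there.

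Markers of the cell types that the fat pad could hold are given for the same comparisons, in which 36.5% of all genes were lower and 33.4% higher in G609G and 21.8% were higher and 17.1% lower in LCS. Of 11 fibroblast and progenitor markers 8 were lower and 1 higher in G609G, with list means of 9.14 to 9.18 in G609G, 10.07 to 10.11 in LCS and 9.75 to 9.79 in WT, and 7 were higher and 1 lower in LCS. Of 6 mesothelial markers 5 were lower and 1 higher in G609G and 5 were higher in LCS, and of 9 macrophage markers 6 were lower and 1 higher in G609G and 6 were higher in LCS. Of 10 endothelial markers 7 were higher and 1 lower in G609G, and 8 were higher and 1 lower in LCS. Of 9 smooth muscle and pericyte markers 6 were higher and 1 lower in G609G, and 2 were higher and 5 lower in LCS. Of 6 tested cartilage and tendon markers 2 were higher and 3 lower in G609G, and 1 was higher in LCS. Of 5 tested Schwann cell markers 1 was higher and 1 lower in G609G, and 1 was higher in LCS. Of 9 mature adipocyte markers 3 were higher and 5 lower in G609G, and 4 were higher and 1 lower in LCS. Of the 13 skeletal muscle markers 13 were higher in G609G and 3 in LCS. Of the 12 epididymis and testis markers 2 were higher and 9 lower in G609G, and 4 were higher and 6 lower in LCS. On the deposited values 10 fibroblast and progenitor markers were lower and 0 higher in G609G, 4 endothelial markers were higher and 5 lower, and 5 smooth muscle and pericyte markers were higher and 4 lower. Of the mature adipocyte markers 8 were then lower and 0 higher, of the macrophage markers 9 lower, of the mesothelial markers 6 lower, of the cartilage and tendon markers 4 lower and of the Schwann cell markers 3 lower, with 0 higher in each, while 70.1% of all genes were lower. Epididymis and testis markers were 1 higher and 10 lower, and all 13 skeletal muscle markers stayed higher. The part of these shifts in the collagen results was not tested.

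Set against each other, G609G and LCS differed in the chains that fell in G609G and rose in LCS by up to 9.65-fold. Col15a1 was lower by 3.27 on the log2 scale in G609G than in LCS (SE 0.14, limma adjusted p = 5.4e-10), and the 3 collagen VI genes by 1.99 to 2.05. Col14a1 had -1.83, Col3a1 -1.75, Col4a2 -1.46, Col1a1 -1.28 and Col1a2 -1.04 in G609G minus LCS. Col8a1, at -0.45 (adjusted p = 0.0056), no longer passed when the array medians were set equal (-0.30, limma adjusted p = 0.0683). All 6 chains of types I, III and V were lower in G609G than in LCS. Of the 10 tested fibrillar genes 6 were lower and 2 higher, against 36.7% and 36.5% of all genes, with a class median of -0.68. On the deposited scale 7 of the 10 were lower and 0 higher, against 69.1% and 9.38% of all genes. The 12 collagens called higher had log2 folds of 0.30 to 0.59 relative to the median gene and of -0.18 to 0.11 on the deposited scale, where none was called.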

How the data were processed

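RNA of perigonadal white fat had been labelled with biotin by the WT Terminal Labeling Kit, as the labels' protocols state, and hybridised to exon arrays. The authors deposited 1 table of log2 intensities for 229581 probe sets in 9 arrays, 3 per group, whose normalization and software are not given in the sources used here. Build mm9 was used, per the submitters' processing notes. The design text speaks of biological replicates without naming animals, so p-values measure the spread between these arrays. It also counts 1 sample more, which is not analysed here.

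Of the probe sets, 208397 had exactly 1 platform symbol, 3965 had several and 17219 had none. They were summarised to 16299 genes by median polish (R 4.3.3), and 11805 genes (3 or more probe sets, mean log2 intensity over the 25th percentile) were tested with limma 3.58.1 in 1 model of all groups. Before the fit, the median deviation of the tested genes from their means over all arrays was subtracted from each array, with the mean of the WT arrays as zero. Adjusted p-values are Benjamini-Hochberg over all tested genes, with a threshold of 0.05. Single probe sets were tested with diffSplice over 158136 probe sets with a mean above 5.0111. The model was run on simulated data in which few genes changed, up and down alike, and 1 group was shifted evenly. That run does not check the scaling where most genes differ, as in G609G minus WT. The number of arrays limits the precision.

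The collagen genes and the lists were chosen with earlier results of these data known. All collagens by the rule are named, and of each further list up to 4 genes with the lowest p per comparison. Collagen probe sets are the 5 with the lowest p, 1 per gene. Deviations of same-numbered G609G and WT arrays from their group means correlated by 0.176, 0.150 and 0.348 across genes. All were over 0.1, the cut used here, so values with the replicate number as a block are given where a call changed. The labels name no pairing, and these correlations do not settle whether the arrays were paired. All other p-values come from the model without the block. Alternatives were the deposited scale, array medians set equal, quantile normalization, other filters, the methods' t-test, the replicate block and leaving out each array. Promoter windows came from RefSeq (GRCm38.p6) and are not probe positions. Figures were drawn with matplotlib 3.10.9.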

Additional observations from a re-analysis of the deposited data

How the results depend on the processing

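The 15 rises in LCS and the 13 falls in G609G against WT kept their direction under each alternative run in which the gene was tested. Of the falls, Col4a2 lost its call with array medians set equal, and of the rises, Col18a1 lost it without G609G replicate 2. In G609G minus LCS the fall of Col8a1 also lost its call with array medians set equal. On the deposited values 5 further collagens, not called in the main run, were called lower in G609G than in WT. Of these, Col5a1 and Col5a3 were also called lower under the other alternatives given above for collagen V. The calls of higher collagens in G609G depended on scale and filter. As deposited, 0 were higher against WT and 0 against LCS. With genes above the 50th percentile the collagens called were 14 in G609G minus WT (1 higher) and 16 in G609G minus LCS (1 higher), since fewer dim genes entered. In LCS minus WT 14 were called at that filter, all higher. With a fold of 1.5 or more, 9 were called in G609G minus WT (1 higher, 8 lower), 7 in LCS minus WT (7 higher) and 15 in G609G minus LCS (1 higher). The methods' t-test at an unadjusted p and that fold gave the same counts of 9 (1 higher, 8 lower), 7 (7 higher) and 15 (1 higher). After Benjamini-Hochberg it gave 8 (0 higher, 8 lower), 7 (7 higher) and 15 (1 higher). Collagen probe sets called in LCS minus WT were 12 with probe sets above the 50th percentile. Leaving out each array in turn gave 21 to 30 collagens in G609G minus WT (7 to 17 higher, 13 to 14 lower), 14 to 15 in LCS minus WT (14 to 15 higher, 0 lower) and 24 to 33 in G609G minus LCS (8 to 17 higher, 16 lower). Probe sets called ranged over 241 to 431, 8 to 44 and 294 to 482 in the same order. The calls higher in G609G minus WT were 7 without WT replicate 3 and 17 without G609G replicate 3.

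Folds that changed sign on the deposited scale, where the offset of the G609G arrays stays in, were in G609G minus WT Col11a1 -0.01, Col11a2 -0.12, Col13a1 -0.0696, Col16a1 -0.26, Col17a1 -0.36, Col23a1 -0.24, Col27a1 -0.18, Col2a1 -0.12, Col4a3 -0.18, Col4a4 -0.08, Col4a5 -0.35, Col4a6 -0.12, Col7a1 -0.22, Col8a1 -0.37, Col8a2 -0.17 and Col9a2 -0.00833. In G609G minus LCS they were Col11a1 -0.00667, Col11a2 -0.25, Col13a1 -0.12, Col16a1 -0.37, Col17a1 -0.30, Col20a1 -0.04, Col23a1 -0.38, Col27a1 -0.24, Col2a1 -0.13, Col4a3 -0.15, Col4a4 -0.0833, Col4a6 -0.11, Col7a1 -0.24, Col8a2 -0.18 and Col9a2 -0.11.

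With the replicate number as a block, 28 collagens were called in G609G minus WT (14 higher, 14 lower), 15 in LCS against WT and 30 in G609G against LCS, and the probe sets called were 388, 23 and 458. Same-numbered arrays had correlations of -0.12, 0.21 and 0.09 between LCS and WT and of -0.13, 0.12 and 0.11 between G609G and LCS, which were not all over the cut of 0.1. The block was nevertheless fitted over all groups, LCS included, and a block of G609G and WT arrays alone was not fitted. The 2 calls gained under the block in G609G minus LCS were Col11a2 (0.23, limma adjusted p = 0.0408) and Col27a1 (0.24, adjusted p = 0.0466). Apart from these and from Col5a1 and Col27a1 in G609G minus WT, the block changed no call of a collagen gene.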
